A study of Homo sapiens with 9 samples.

Results

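PRKCZ and PRDM16 are 2 protein-coding genes of chromosome band 1p36, picked from 60664 genes of a count table because both rose several-fold in both knockout lines of the study. They were mapped by symbol to ENSG00000067606 (PRKCZ) and ENSG00000142611 (PRDM16). The study sequenced mRNA from Huh-7 cells, an established human hepatocellular carcinoma line, in 3 lines with 3 libraries each. The WT line carried no deletion, the 1-1 KO line lacked VTRNA1-1, and the 1-2 KO line lacked VTRNA1-2. These genes encode vault RNAs, small noncoding RNAs that are in part bound to the vault particle. The cells were untreated and grown to 80% confluency in DMEM F12 with 10% serum.

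Each knockout is represented by a single line. The 1-2 KO line is a single-cell clone that was edited with CRISPR/Cas9 in the WT cells, and the WT and 1-1 KO lines came from another laboratory. The study calls the libraries of a line biological replicates. No source used here states that they came from separate cultures, so each p-value measures the spread between these libraries, which may be technical. Total counts per library were between 32384469 and 41782387. The targeted RNAs could not be checked in these libraries, in which VTRNA1-2 had 0 counts throughout and VTRNA1-1 had 1 count, in WT replicate 1. All 13 hepatocyte markers were expressed in all 3 lines. Replicate 1 of the 1-2 KO line stood apart from the other libraries of its line, with GC-rich genes higher by a median of 0.11 on the log2 scale. WT replicate 3 deviated from the mean of its own line in part in the same way (correlation of 0.237 over the tested genes). This was the highest such correlation between libraries of different lines.

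PRKCZ encodes the zeta isoform of protein kinase C. With PRKCI it forms the atypical branch of the family, which does not respond to calcium or diacylglycerol and is steered by binding partners such as the PAR polarity proteins and the scaffold p62, encoded by SQSTM1. PRDM16 encodes a zinc finger regulator of transcription with a PR domain. It is best known for establishing brown fat identity and for its role in blood stem cells, and its closest relative is MECOM. Neither gene is a classical marker of hepatocytes.

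PRKCZ lies on the plus strand at chr1:2050411-2185395 of GRCh38, spans 135 kb and has 26 annotated transcripts and 7695 nt of exon. PRDM16 lies on the same strand at chr1:3069168-3438621, spans 369 kb and has 10 transcripts and 9767 nt of exon. Their annotated starts are 1020 kb apart. The end of PRKCZ is 884 kb from the start of PRDM16. The sequences around the transcription starts are shown because the members and several non-coding genes beside them were higher in the knockouts. RefSeq on GRCh38.p14 gives 4 start windows of 300 bases for PRKCZ and 1 for PRDM16-DT, the divergent non-coding gene next to PRDM16. The windows run from 250 bases before a start to 50 bases after it. Capitals mark CCAAT and GGGCGG on either strand, which read ATTGG and CCGCCC on the opposite strand, and overlapping copies run together.

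PRKCZ, first annotated start, chr1:2050161-2050460, plus strand: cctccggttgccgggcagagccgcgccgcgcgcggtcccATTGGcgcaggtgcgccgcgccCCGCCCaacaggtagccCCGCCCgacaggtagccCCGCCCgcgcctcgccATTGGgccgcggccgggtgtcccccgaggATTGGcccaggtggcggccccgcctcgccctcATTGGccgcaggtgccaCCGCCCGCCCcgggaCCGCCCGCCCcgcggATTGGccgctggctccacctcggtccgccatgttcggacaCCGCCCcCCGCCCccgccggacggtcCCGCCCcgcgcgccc

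PRKCZ, internal start with the fewest CG dinucleotides, chr1:2104466-2104765, plus strand: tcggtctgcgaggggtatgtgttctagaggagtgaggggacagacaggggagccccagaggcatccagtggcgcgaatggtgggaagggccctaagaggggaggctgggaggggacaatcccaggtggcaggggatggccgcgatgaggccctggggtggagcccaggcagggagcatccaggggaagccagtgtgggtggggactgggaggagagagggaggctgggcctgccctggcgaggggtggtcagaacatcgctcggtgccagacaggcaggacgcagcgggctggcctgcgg

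PRDM16-DT, chr1:3067676-3067975, minus strand: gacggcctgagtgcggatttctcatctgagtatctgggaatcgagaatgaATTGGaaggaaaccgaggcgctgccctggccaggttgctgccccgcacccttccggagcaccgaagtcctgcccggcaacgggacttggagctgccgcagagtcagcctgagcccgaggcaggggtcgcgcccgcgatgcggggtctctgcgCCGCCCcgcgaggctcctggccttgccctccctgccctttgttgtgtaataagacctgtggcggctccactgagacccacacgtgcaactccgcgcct

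The window at the first PRKCZ start held 5 copies of CCAAT, all in the ATTGG orientation, and 10 copies of GGGCGG. It contained 47 CG dinucleotides and was 81.0% G and C. Among 35116 RefSeq windows of this length the median was 14 CG dinucleotides, and this window stood at percentile 97.6. CCAAT on either strand was present in 34.6% of all these windows and GGGCGG in 45.0%. The 3 internal PRKCZ starts were poorer in both, and the window printed is the poorest of them, with 12 CG dinucleotides and neither motif. The other two held 15 CG dinucleotides with 1 copy of GGGCGG and 30 CG dinucleotides with neither motif. The PRDM16-DT window held 25 CG dinucleotides and 1 copy of each of the 2 motifs. It starts within the PRDM16-DT body of the gene annotation used here. The counts are per gene and do not tell which start was used.

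PRKCZ was low in WT and several-fold higher in both knockouts. The WT libraries had 42, 42 and 26 counts, which are 1.06, 1.12 and 0.824 counts per 1e6 counted reads (CPM, computed with library sizes scaled by edgeR's TMM factors). The 1-1 KO libraries had 377, 350 and 351 counts, or 8.91, 8.51 and 8.60 CPM. The 1-2 KO libraries had 311, 302 and 310 counts, or 7.38, 7.58 and 7.74 CPM. Every knockout library was above every WT library, and the ranges of the 2 knockouts were also apart from each other. The mean level was 1.00 ± 0.155 CPM in WT, 8.67 ± 0.209 CPM in 1-1 KO and 7.57 ± 0.177 CPM in 1-2 KO (SD, n = 3 each). These means are 8.68-fold higher in 1-1 KO and 7.57-fold higher in 1-2 KO than in WT. On the log2 scale the fit gave 3.10 (SE 0.11) for 1-1 KO and 2.90 (SE 0.11) for 1-2 KO. The rise of both genes in these comparisons is what chose them, so it is given as a description with no test.

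PRDM16 was also several-fold higher in both knockouts, from a WT level that varied little. The WT libraries had 118, 110 and 92 counts, or 2.96, 2.93 and 2.92 CPM. The 1-1 KO libraries had 425, 426 and 382 counts, or 10.0, 10.4 and 9.36 CPM. The 1-2 KO libraries had 612, 540 and 468 counts, or 14.5, 13.6 and 11.7 CPM. All WT libraries were below all knockout libraries, and the 1-2 KO libraries were all above the 1-1 KO libraries, with replicate 1 the highest. The mean level was 2.94 ± 0.0246 CPM in WT, 9.92 ± 0.508 CPM in 1-1 KO and 13.3 ± 1.45 CPM in 1-2 KO (SD, n = 3 each). These are differences of 3.38-fold and 4.51-fold from WT. On the log2 scale the fit gave 1.75 (SE 0.099) for 1-1 KO and 2.17 (SE 0.097) for 1-2 KO. The libraries measure whole cultures, so more cells expressing a gene and more RNA per cell cannot be told apart.

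**Figure D1:**
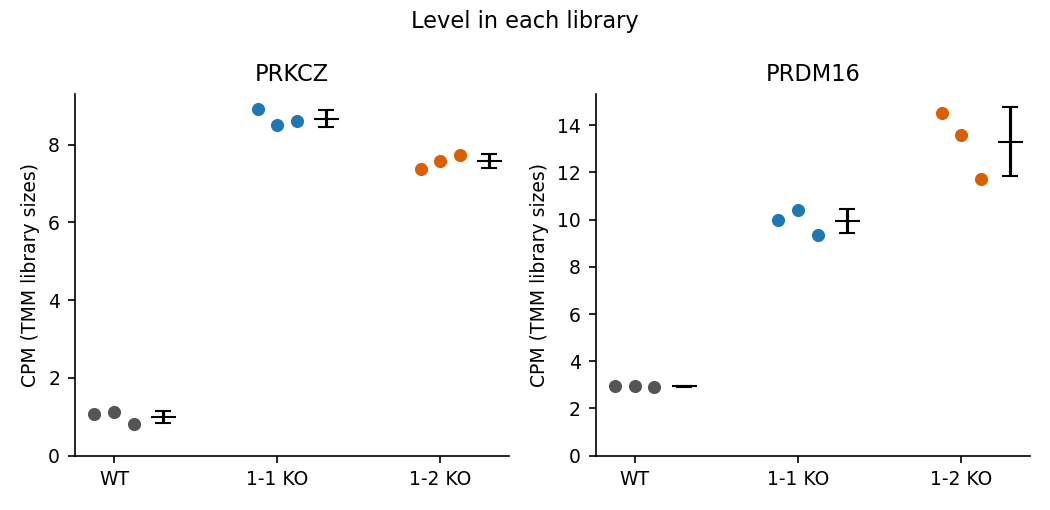
Level of PRKCZ and PRDM16 in CPM, 1 point for each of the 9 libraries, by line. The horizontal mark and bar beside the points are the mean and SD of 3 libraries. WT lies lowest for both genes, and the order of the knockouts differs, with PRKCZ at 8.67 CPM in 1-1 KO and 7.57 CPM in 1-2 KO, and PRDM16 at 9.92 CPM and 13.3 CPM.

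Changes of this size were not rare in these lines. Of 17207 genes tested, 63.4% were called different between 1-1 KO and WT at an adjusted p under 0.05 (quasi-likelihood test of edgeR, adjusted by the Benjamini-Hochberg method), and 54.4% between 1-2 KO and WT. A fitted fold change at least as high as that of PRKCZ was found for 228 genes (1.33%) in 1-1 KO and for 401 genes (2.33%) in 1-2 KO. At least the fitted fold change of PRDM16 was found for 748 genes (4.35%) in 1-1 KO and for 640 genes (3.72%) in 1-2 KO.

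The knockouts ranked the 2 genes in opposite order. This direct comparison was not used to choose them, and 65.3% of all tested genes were called in it. PRDM16 was 1.34-fold higher in 1-2 KO than in 1-1 KO, a log2 difference of 0.42 (SE 0.084, 95% interval 0.24 to 0.60, adjusted p = 0.000514, edgeR). Leaving out 1-2 KO replicate 1, the library in which GC-rich genes were raised, gave 0.35 (adjusted p = 0.00177). PRKCZ was 1.15-fold lower in 1-2 KO, a log2 difference of -0.20 (SE 0.082, 95% interval -0.37 to -0.02, adjusted p = 0.0471, edgeR). That call for PRKCZ was at the threshold. It was lost with DESeq2's test (adjusted p = 0.145). It was also lost without WT replicate 1 (adjusted p = 0.0519), and without any single knockout library. Those adjusted p-values were 0.137, 0.0789 and 0.0902 without 1-1 KO replicates 1, 2 and 3. They were 0.0857, 0.0895 and 0.0706 without 1-2 KO replicates 1, 2 and 3.

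Per kilobase of exon, both genes were low expressed even after the rise. PRKCZ stood at 0.130 ± 0.0202 CPM per kb in WT, 1.13 ± 0.0271 in 1-1 KO and 0.983 ± 0.023 in 1-2 KO. This moved it from percentile 12.8 of all tested genes in WT to percentile 36.5 in 1-1 KO and 34.6 in 1-2 KO. PRDM16 stood at 0.301 ± 0.00252 CPM per kb in WT, 1.02 ± 0.052 in 1-1 KO and 1.36 ± 0.148 in 1-2 KO, at percentiles 21.4, 35.2 and 39.0. The ratio of PRDM16 to PRKCZ per kb was 2.35 ± 0.382 in WT, 0.902 ± 0.052 in 1-1 KO and 1.38 ± 0.182 in 1-2 KO (SD, n = 3). By this measure PRDM16 was the higher of the 2 in WT and in 1-2 KO, and PRKCZ the higher in 1-1 KO. The exon length joins the exons of all annotated transcripts of a gene, and the counts do not tell which transcripts were present. The order of the 2 genes depends on that length.

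The neighbourhood was then examined, that is all other genes of chromosome 1 from 1.9 to 3.6 Mb. The annotation lists 50 such genes, of which 36 had a count in any library and 15 were abundant enough to be tested. In 1-1 KO, 9 of the 15 were called higher, beside 32.5% of all tested genes, and 2 lower, beside 30.9%. In 1-2 KO, 9 were called higher, beside 28.2% of all, and 1 lower, beside 26.2%. The median of the 15 log2 fold changes was 0.63 for 1-1 KO and 0.77 for 1-2 KO, beside 0.01 and 0.02 over all tested genes. Both knockouts share the WT libraries, so these counts are not independent of each other. The higher calls include PRKCZ-AS1, ENSG00000287356, ENSG00000269896, TNFRSF14, PRDM16-DT and, in 1-1 KO, ENSG00000226286. These genes passed the filter through the knockout libraries, where they were high. The counts and medians are therefore a description and no test of the neighbourhood.

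Low-count neighbours weighed on these numbers. Of the 15 neighbours, 6 had a mean under 1 CPM over the 9 libraries, and a gene that is near 0 in WT passes the filter only if a knockout raises it. Among the 9 with a mean of at least 1 CPM, a set added after the values were seen, 4 were called higher in 1-1 KO (44.4%, against 34.3% of all genes at that level) and 2 lower. In 1-2 KO, 5 of these 9 were called higher (55.6%, against 29.5%) and 1 lower. The median of these 9 was 0.02 for 1-1 KO and 0.28 for 1-2 KO on the log2 scale. In the direct comparison of the knockouts 2 of them were called higher in 1-2 KO, beside 36.6% of all genes at that level. TNFRSF14, among these 9 and counted as higher in both knockouts, was at 0.469 CPM in WT. It passed the filter and reached a mean of 1 CPM through the knockout libraries. The set is therefore not free of genes that a knockout raised into it.

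**Figure D2:**
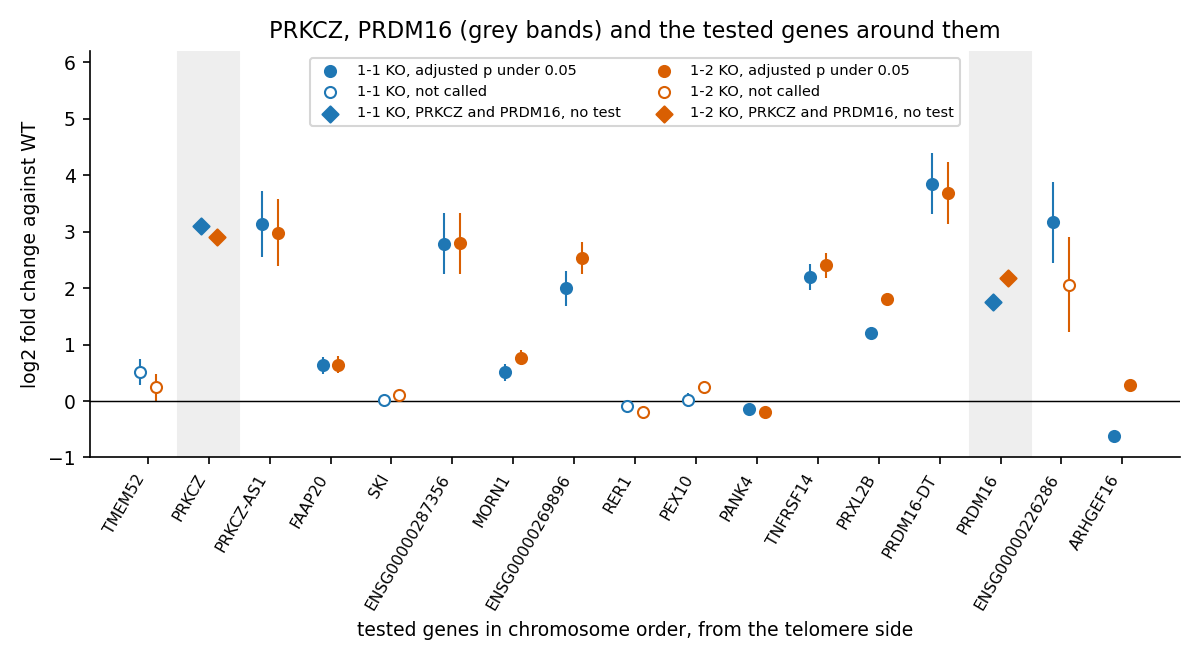
Fitted log2 fold change against WT (vertical axis) for the 17 tested genes of chromosome 1 from 1.9 to 3.6 Mb, in chromosome order. Filled circles passed an adjusted p of 0.05, open circles did not, diamonds in grey bands are PRKCZ and PRDM16 with no test, and bars are SE. Circles of PRKCZ-AS1, ENSG00000287356, ENSG00000269896, TNFRSF14, PRDM16-DT and ENSG00000226286 are also a description. Those genes passed the filter through the knockout libraries. High values stand beside values near 0, such as 0.02 for SKI and 2.20 for TNFRSF14 in 1-1 KO, and the fits for genes near 0 counts in WT are not bounds.

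A non-coding gene at one end of each member had higher counts in both knockouts. Both passed the filter through the knockout libraries, so their values are a description with no test. PRDM16-DT (chr1:3059611-3069091, minus strand) starts 77 nt from the start of PRDM16 on the opposite strand. It had 1, 3 and 2 counts in WT, 35, 27 and 42 in 1-1 KO and 49, 25 and 17 in 1-2 KO. Its level was at least 10.0-fold higher in 1-1 KO and at least 8.84-fold higher in 1-2 KO, set against a floor of 3 counts per WT library. PRKCZ-AS1 (chr1:2181794-2184389, minus strand) lies within the 3′ part of PRKCZ. It had 2, 2 and 0 counts in WT, 18, 14 and 11 in 1-1 KO and 12, 9 and 17 in 1-2 KO. It was at least 4.13-fold higher in 1-1 KO and at least 3.73-fold higher in 1-2 KO.

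Inside the PRDM16 body lie 6 non-coding genes, whose summed counts were 1, 4 and 4 in WT, 30, 33 and 39 in 1-1 KO and 12, 11 and 20 in 1-2 KO. All knockout sums were above all WT sums, and here 1-1 KO was the higher line, the reverse of PRDM16 itself. Only 1 of the 6, ENSG00000226286 on the minus strand, passed the filter, also through the knockout libraries. It had 0, 2 and 2 counts in WT, 14, 7 and 23 in 1-1 KO and 5, 5 and 10 in 1-2 KO. Whether the counting used the strand is not given in the sources used here, so reads of a member and of an antisense gene cannot be told apart for these genes.

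Between the members, TNFRSF14 came closest to them in size of change among the neighbours with a mean of at least 1 CPM. It encodes a TNF receptor family protein that binds LIGHT and BTLA. Its counts were 20, 9 and 21 in WT, 96, 87 and 82 in 1-1 KO and 106, 90 and 102 in 1-2 KO, with no overlap between WT and either knockout. The mean rose from 0.469 ± 0.215 CPM in WT to 2.13 ± 0.13 in 1-1 KO (4.54-fold, log2 2.20). In 1-2 KO it was 2.44 ± 0.157 CPM (5.20-fold, log2 2.40). WT replicate 2, with 9 counts, was under the filter's minimum count of 10, so TNFRSF14 passed the filter through the knockout libraries. Its values are therefore a description with no test.

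PRXL2B, which encodes a prostaglandin F synthase and is the next gene on the same side, rose as well. It was at 2.71, 2.75 and 3.42 CPM in WT, 6.76, 6.61 and 6.91 CPM in 1-1 KO and 11.1, 9.39 and 10.5 CPM in 1-2 KO, so the 3 lines did not overlap. It was 2.28-fold higher in 1-1 KO (adjusted p = 2.34e-07, edgeR) and 3.49-fold higher in 1-2 KO (adjusted p = 3.19e-09). As for PRDM16, 1-2 KO was also above 1-1 KO, with a log2 difference of 0.61 (adjusted p = 4.16e-05). In that direct comparison 3 of the 15 neighbours were called higher in 1-2 KO (beside 33.1% of all tested genes) and 0 lower (beside 32.2%). The count of 0 rose to 2 with no filter on low counts.

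The other called neighbours changed less or were scarce. FAAP20, a component tied to the Fanconi anemia core complex, overlaps the 3′ end of PRKCZ on the opposite strand. It was at 9.02, 9.04 and 11.2 CPM in WT and 14.9, 14.5 and 15.6 CPM in 1-1 KO (log2 0.63, adjusted p = 0.00271, edgeR). In 1-2 KO it was at 20.2, 12.8 and 12.4 CPM (log2 0.64, adjusted p = 0.00283), with the first replicate apart, and without it the log2 value was 0.38 (adjusted p = 0.00242). MORN1 had log2 fold changes of 0.51 (adjusted p = 0.00739) and 0.77 (adjusted p = 0.000401). The pseudogene ENSG00000269896 and the non-coding gene ENSG00000287356 were at 0.156 and 0.0675 CPM in WT and between 0.522 and 0.921 CPM in the knockouts. Without WT replicate 1 the fitted log2 value of ENSG00000287356 went from 2.78 to 4.90 in 1-1 KO and from 2.79 to 4.90 in 1-2 KO, since the other WT libraries hold almost none of its counts.

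SKI, RER1, PEX10 and PANK4, all above 10 CPM in every line, differed little from WT. SKI, a repressor of TGF-beta signalling and a known partner of PRDM16, was at 81.4 CPM in WT, 82.4 in 1-1 KO and 87.2 in 1-2 KO and was not called (adjusted p = 0.828 and 0.25, edgeR). It was called higher in 1-2 KO without WT replicate 3 (log2 0.18, adjusted p = 0.029), and lower in both knockouts with a correction for exon GC content (log2 -0.12 in each). RER1, a protein of retrieval from the Golgi, was at 93.8, 88.5 and 82.1 CPM and was not called, but in 1-2 KO it fell by 0.33 without replicate 1 of that line (adjusted p = 0.000373, edgeR). PEX10, a ubiquitin ligase of peroxisome assembly, was at 12.8, 12.9 and 15.2 CPM and was not called either. Its log2 value of 0.25 in 1-2 KO was 0.06 without replicate 1 and 0.34 without replicate 2 or without replicate 3 of that line, and the latter 2 were called. PANK4, a pantothenate kinase relative, fell by 0.14 (adjusted p = 0.0199) and by 0.20 (adjusted p = 0.00357) on the log2 scale. The fall in 1-1 KO lost its call without WT replicate 3 (adjusted p = 0.0676) or without 1-1 KO replicate 3 (adjusted p = 0.0853).

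The outermost tested genes of the interval were not called higher in both knockouts, and high values recurred beyond them. TMEM52, on the telomere side of PRKCZ, had log2 values of 0.51 (adjusted p = 0.0689, edgeR) and 0.24 (adjusted p = 0.429). In 1-1 KO it was called higher with library size alone (0.56, adjusted p = 0.0461) and with at least 10 counts in every library (0.53, adjusted p = 0.0469). ARHGEF16, which encodes a guanine nucleotide exchange factor and follows PRDM16, changed in opposite directions. It was at 21.2 ± 1.45 CPM in WT, 13.8 ± 0.707 in 1-1 KO (log2 -0.62, adjusted p = 1.31e-06) and 25.8 ± 0.928 in 1-2 KO (log2 0.28, adjusted p = 0.00145). With a correction for exon GC content, the 1-2 KO value was 0.06 and not called (adjusted p = 0.343). Further out, 4 genes chosen after their values were seen had high fitted log2 fold changes. FNDC10, on the telomere side, had 1.89 in 1-1 KO and 1.99 in 1-2 KO. TP73, a p53 relative, had 1.23 and 2.25, and GPR153 had 2.14 and 1.26. HES2 had 2.95 in 1-1 KO and 0.01 in 1-2 KO.

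Regions on either side had other medians. Of all tested genes, 32.5% were called higher and 30.9% lower in 1-1 KO, and 28.2% and 26.2% in 1-2 KO. From the start of chromosome 1 to 1.9 Mb, 59 genes were tested, of which 9 were called higher (15.3%) and 16 lower (27.1%) in 1-1 KO (median log2 -0.10). In 1-2 KO 7 were higher (11.9%) and 12 lower (20.3%), with a median of -0.03. From 3.6 to 10 Mb, 9 of 53 were higher (17.0%) and 25 lower (47.2%) in 1-1 KO (median -0.15). In 1-2 KO 12 were higher (22.6%) and 23 lower (43.4%), with a median of -0.14. Over chromosome 1 without the members, 17.6% of 1686 tested genes were called higher and 48.6% lower in 1-1 KO, and 19.5% higher and 40.8% lower in 1-2 KO. A wider neighbourhood of 25 tested genes on either side of each member held 62 genes. Of these 19 were higher (30.6%) and 17 lower (27.4%) in 1-1 KO. In 1-2 KO 18 were higher (29.0%) and 14 lower (22.6%). These shares are near those of all tested genes.

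**Figure D3:**
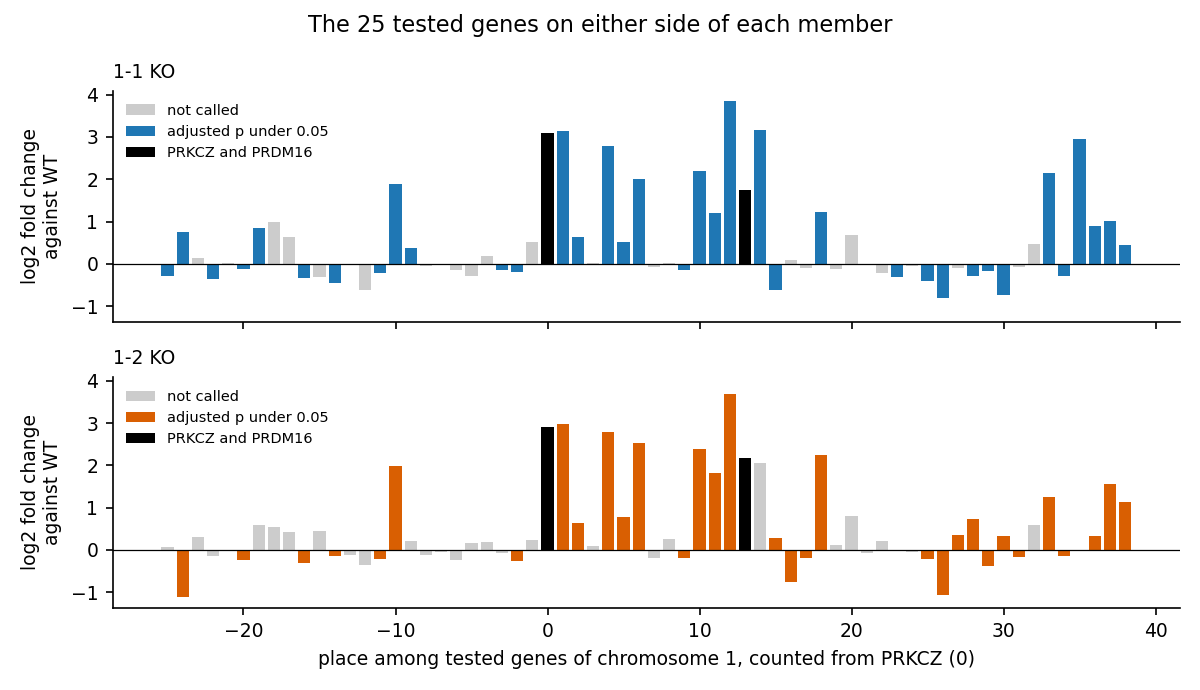
Fitted log2 fold change against WT of the 25 tested genes on either side of PRKCZ and PRDM16, by place along chromosome 1 with PRKCZ at 0. Coloured bars passed an adjusted p of 0.05, grey bars did not, and black bars are PRKCZ and PRDM16. The coloured bars include genes that passed the filter through the knockout libraries, such as PRDM16-DT. Tall positive bars stand between PRKCZ at 0 and the gene at 14 and also outside, as at -10 (FNDC10), 18 (TP73) and 33 (GPR153) in both knockouts and at 35 (HES2) in 1-1 KO, and in 1-1 KO the 62 genes together had a median of -0.02.

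The other genes of the protein kinase C family had smaller fitted fold changes than PRKCZ. Of 13 listed relatives 10 were tested, and 5 were called higher and 3 lower in 1-1 KO, beside 32.5% and 30.9% of all tested genes. In 1-2 KO 3 were higher and 3 lower, near the 28.2% and 26.2% of all tested genes. Their median log2 fold changes were 0.11 and 0.07, and their highest value in 1-1 KO was 0.31, for PRKCD. PRKCI, the other atypical isoform, was at 66.4 ± 1.49 CPM in WT, 71.5 ± 0.4 in 1-1 KO and 67.8 ± 0.923 in 1-2 KO. Its log2 fold change was 0.11 in 1-1 KO (adjusted p = 0.014, edgeR) and 0.03 in 1-2 KO (adjusted p = 0.488). The call in 1-1 KO was lost with DESeq2's test (adjusted p = 0.0699). Per kb of exon, PRKCI exceeded PRKCZ by a factor of 89.7 ± 13 in WT, 11.0 ± 0.212 in 1-1 KO and 11.9 ± 0.275 in 1-2 KO (SD, n = 3). By this measure PRKCI remained the higher of the atypical isoforms in every library.

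PRKCH, the eta isoform, was the 1 relative of PRKCZ that rose by more than 1 on the log2 scale in a knockout. It was at 2.47 CPM in WT, 2.95 in 1-1 KO and 8.0 in 1-2 KO, with log2 values of 0.26 in 1-1 KO (adjusted p = 0.104, edgeR, and 0.0359 without WT replicate 3) and 1.70 in 1-2 KO (adjusted p = 3.93e-08). PRKD1, a protein kinase D gene, fell by 0.56 in 1-1 KO (adjusted p = 7.37e-07) and had 0.08 in 1-2 KO (adjusted p = 0.207), where leaving out replicate 1 of that line gave 0.14 (adjusted p = 0.016). PRKD2 rose by 0.24 in 1-1 KO, and PRKD3 fell by 0.20 there. PKN3, of the PKC-related kinases, rose by 0.25 in 1-1 KO and had 0.06 in 1-2 KO, and with a correction for exon GC content the values were -0.07 and -0.33. PRKCA, PKN2 and PRKCE were lower in 1-2 KO, at -0.40, -0.34 and -0.61.

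Genes whose products work with atypical PKC include polarity proteins and scaffolds. Of 28 tested, 11 were called higher and 11 lower in 1-1 KO (beside 32.5% and 30.9% of all tested genes). In 1-2 KO 8 were higher and 9 lower (beside 28.2% and 26.2%), and the medians were 0.05 and 0.01. PARD3, the polarity scaffold that is an aPKC substrate, fell by 0.73 in 1-1 KO (adjusted p = 5.03e-10, edgeR) and by 0.48 in 1-2 KO (adjusted p = 5.32e-08). Its relative PARD3B rose by 0.93 and 0.61 on the log2 scale. CDC42, the GTPase that activates the PAR6 and aPKC complex, fell by 0.41 and 0.71, and its exchange factor ECT2 fell by 0.39 and 0.45. PARD6B, an adaptor of the complex, was not called (18.9 CPM in WT, 19.5 in 1-1 KO and 17.9 in 1-2 KO). SQSTM1 fell by 0.33 in 1-1 KO (adjusted p = 0.00166) and by 0.20 in 1-2 KO (adjusted p = 0.0375). The latter call was lost without any single WT library, without 1-1 KO replicate 1 or 2, and without 1-2 KO replicate 2 or 3, with adjusted p-values up to 0.183. Without 1-2 KO replicate 1, the library that stood apart, the fall in 1-2 KO was 0.33 (adjusted p = 2.29e-06). PAWR, an inhibitor of aPKC, fell by 0.42 and 0.18. PATJ, a protein of the Crumbs polarity complex, was lower in 1-1 KO (-0.96) and higher in 1-2 KO (0.78). NBR1, an autophagy receptor of the p62 type, was higher in 1-1 KO (0.54) and lower in 1-2 KO (-0.16).

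**Figure D4:**
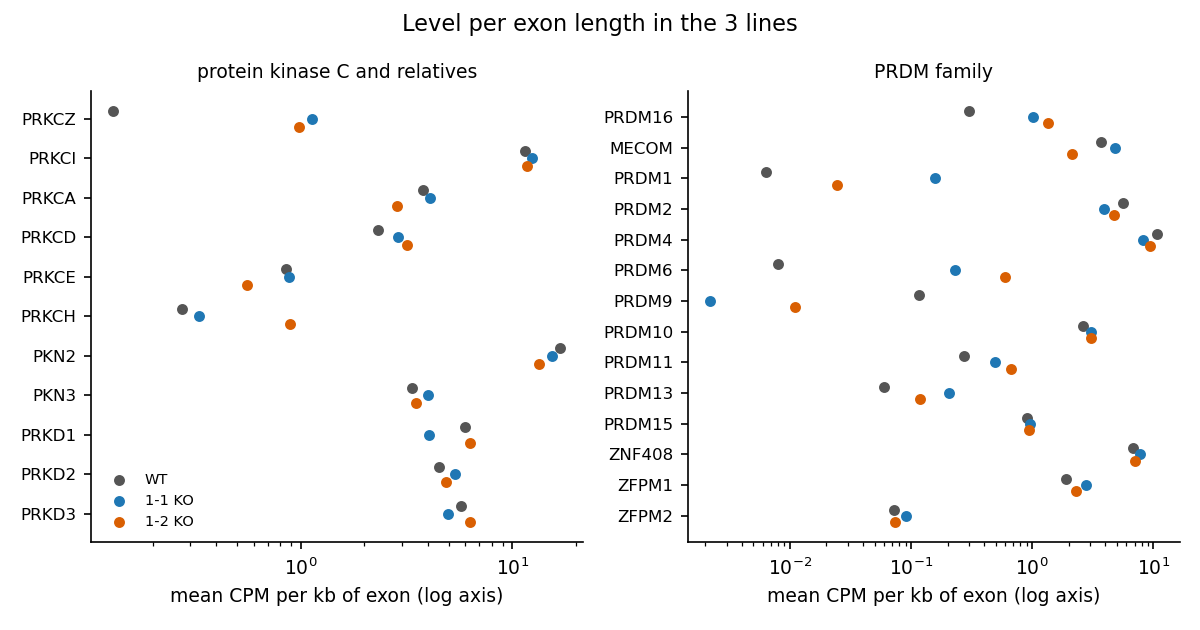
Mean level per kb of exon (CPM per kb, log axis) of PRKCZ with its tested relatives and of PRDM16 with its tested relatives, 1 point for each line of 3 libraries. PRKCZ moves from 0.130 in WT to 1.13 in 1-1 KO and stays under PRKCI at 11.5 to 12.4, and PRDM16 moves from 0.301 in WT to 1.36 in 1-2 KO while MECOM lies at 2.14 there. Points of PRDM1, PRDM6 and PRDM9 near the left edge rest on a few counts.

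The PRDM family shares the PR domain. Of 18 listed genes other than PRDM16, 13 were tested, with 8 called higher and 3 lower in 1-1 KO (median 0.32, beside 32.5% and 30.9% of all tested genes). In 1-2 KO 4 were higher and 4 lower (median 0.06), near the 28.2% and 26.2% of all tested genes. The higher calls include PRDM6, PRDM1 and, in 1-1 KO, PRDM13, which passed the filter through the knockout libraries. The lower calls include PRDM9, which passed it through the WT libraries. These counts are therefore a description. MECOM, the closest relative of PRDM16, was at 34.4 ± 1.45 CPM in WT, 44.6 ± 1.22 in 1-1 KO and 19.8 ± 0.142 in 1-2 KO. It rose by 0.38 on the log2 scale in 1-1 KO (adjusted p = 6.18e-06, edgeR) and fell by 0.80 in 1-2 KO (adjusted p = 5.98e-09). Per kb of exon, the ratio of MECOM to PRDM16 was 12.3 ± 0.428 in WT, 4.76 ± 0.346 in 1-1 KO and 1.59 ± 0.188 in 1-2 KO (SD, n = 3). By this measure MECOM was the higher of the pair in all 3 lines.

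PRDM6 had the highest fitted fold changes of the tested PRDM genes in both knockouts. It had 2, 4 and 2 counts in WT, 108, 90 and 68 in 1-1 KO and 230, 215 and 231 in 1-2 KO. PRDM6 and PRDM1 passed the filter through the knockout libraries, so no test is given for them against WT. Like PRDM16, PRDM6 was higher in 1-2 KO than in 1-1 KO. PRDM11 rose by 0.84 and 1.29 on the log2 scale, in the same order of lines. PRDM1, a repressor known from B-cell and epithelial differentiation, had 3, 2 and 0 counts in WT, 42, 31 and 60 in 1-1 KO and 7, 6 and 7 in 1-2 KO. It was at least 12.8-fold higher in 1-1 KO and at least 1.96-fold higher in 1-2 KO. PRDM2 fell by 0.52 and 0.26. PRDM9, the meiotic methyltransferase, went from 14, 16 and 16 counts in WT to between 0 and 3 counts in the knockouts, although reads from the near-identical PRDM7 could be split with it.

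Genes whose products act with PRDM16 include corepressors and transcription factors. Of 19 tested, 2 were called higher and 10 lower in 1-1 KO (median -0.09, beside 32.5% and 30.9% of all tested genes). In 1-2 KO 6 were higher and 6 lower (median 0.03), near the 28.2% and 26.2% of all tested genes. The higher calls in 1-1 KO include PPARGC1A, which passed the filter through the 1-1 KO libraries. PPARG, the fat cell regulator that PRDM16 binds, fell by 1.04 in 1-1 KO (adjusted p = 1.7e-11, edgeR) and by 0.35 in 1-2 KO (adjusted p = 1.15e-06). CTBP2, a corepressor, was the exception in size, with 0.702 CPM in WT, 6.32 in 1-1 KO and 29.0 in 1-2 KO. CTBP2 has pseudogene copies in the annotation, so its count is uncertain. CUL2 fell by 0.84 and 0.51, and HDAC1 fell by 0.20 and 0.46.

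The brown fat and mitochondrial genes tied to PRDM16 were in part too scarce to test. Of 24 listed, 14 were tested, with 5 called higher and 3 lower in 1-1 KO (beside 32.5% and 30.9% of all tested genes) and 4 higher and 4 lower in 1-2 KO (beside 28.2% and 26.2%). The medians were -0.05 and -0.06, and these shares are near those of all tested genes. UCP1, the uncoupling protein of brown fat, was at 0.905 ± 0.0684 CPM in WT, 2.92 ± 0.417 in 1-1 KO and 0.650 ± 0.204 in 1-2 KO. It rose by 1.69 on the log2 scale in 1-1 KO (adjusted p = 2.12e-06, edgeR) and was not called in 1-2 KO (-0.47, adjusted p = 0.103), except without replicate 3 of that line (-0.74, adjusted p = 0.0205). The line with the higher PRDM16 level was not the line with the higher UCP1 level, and a link between the 2 genes was not tested. ELOVL6, a fatty acid elongase, rose by 0.76 and 0.41, and PPARA, a regulator of fatty acid oxidation, by 0.61 and 0.42. ACADL, an acyl-CoA dehydrogenase, had 6, 9 and 9 counts in WT, 10, 6 and 5 in 1-1 KO and 63, 71 and 61 in 1-2 KO. It passed the filter through the 1-2 KO libraries, so no test is given for it. The higher calls counted above include ACADL in 1-2 KO and PPARGC1A in 1-1 KO, which passed the filter through the 1-1 KO libraries. Those counts are therefore a description.

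Hepatocyte markers differed between the lines too. Of 13 tested, 11 were called higher and 1 lower in 1-1 KO (median 0.38, beside 32.5% and 30.9% of all tested genes). In 1-2 KO 6 were higher and 3 lower (median 0.06, beside 28.2% and 26.2%). Their summed level was between 15900 and 16900 CPM in the WT libraries, between 32300 and 33200 CPM in 1-1 KO and between 22300 and 24500 CPM in 1-2 KO. AFP rose by 2.22 and 2.08 on the log2 scale, ALB by 1.9 and 0.90, APOA1 by 0.84 and 0.15 and APOA2 by 0.24 and 0.40. The value of APOA1 in 1-2 KO turned to -0.25 with a correction for exon GC content, and it was not called without WT replicate 3 (adjusted p = 0.107) or 1-2 KO replicate 3 (adjusted p = 0.086). TTR rose by 1.59 in 1-1 KO and fell by 0.64 in 1-2 KO. Their part in the levels of PRKCZ and PRDM16 was not tested.

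Of 16 markers of other cell types, 10 were tested, with 3 called higher and 3 lower in 1-1 KO (median 0.01), near the 32.5% and 30.9% of all tested genes. In 1-2 KO 7 were higher and 2 lower (median 0.90, beside 28.2% and 26.2%). Their summed level was between 159 and 161 CPM in WT, 190 and 195 in 1-1 KO and 86.8 and 93.0 in 1-2 KO, most of it LYZ in WT. LYZ and PECAM1 fell by 2.56 and 3.17 in 1-2 KO. COL1A2 rose by 1.73 and 0.98 and PDGFRB by 1.61 and 1.87. COL1A1 and COL3A1 rose by 0.22 and 0.83 in 1-2 KO, and the call for COL1A1 was lost with GC offsets (0.08). PTPRC was at 0.153 CPM in WT, 0.522 in 1-1 KO and 0.998 in 1-2 KO, GFAP at 0.418 CPM or less in every line, and DES fell by 3.31 in 1-1 KO. PTPRC and GFAP passed the filter through the knockout libraries. Their higher calls, PTPRC in both knockouts and GFAP in 1-2 KO, are therefore a description, and so are the counts that include them. ADIPOQ, the defining fat cell gene of the list, had 0 counts in WT and 1-2 KO and 1 count in 1-1 KO, and RBFOX3 was also at 0 in WT and 1-2 KO. The part of these genes in the levels of PRKCZ and PRDM16 was not tested.

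Other genes followed each of the 2 members more closely than they followed each other. Likeness was measured as the root mean square difference of log2 CPM over the 9 libraries, each gene centred on its own mean. For PRKCZ the 5 closest genes were CHST6 (0.109), LYPD6 (0.156), PDE1A (0.172), ERBB4 (0.205) and HOXB9 (0.232). None of them lies on chromosome 1. CHST6, a sulfotransferase, had 13, 12 and 8 counts in WT, 144, 118 and 131 in 1-1 KO and 114, 90 and 102 in 1-2 KO, all knockout libraries above WT. LYPD6 was the most abundant of the 5, at 4.97 ± 0.205 CPM in WT, 34.5 ± 1.14 in 1-1 KO and 34.4 ± 0.766 in 1-2 KO. ERBB4, a receptor tyrosine kinase, went from 0.553 ± 0.0224 CPM to 5.98 ± 0.188 and 4.16 ± 0.49 CPM. HOXB9 had 0 counts in all WT libraries, 16, 11 and 12 in 1-1 KO and 14, 16 and 16 in 1-2 KO. Its WT value in the likeness is set by the prior count of 2 that was added before taking logs.

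For PRDM16 the 5 closest genes were LRRC31 (0.109), OSBPL1A (0.147), SMARCA2 (0.153), SUSD5 (0.163) and FIBIN (0.165), again none on chromosome 1. SMARCA2, an ATPase of the SWI/SNF chromatin remodelling complex, was at 6.56 ± 0.549 CPM in WT, 25.2 ± 1.54 in 1-1 KO and 34.3 ± 1.04 in 1-2 KO. LRRC31 was at 1.46 ± 0.114, 5.08 ± 0.44 and 6.33 ± 0.302 CPM in the same order. OSBPL1A, a lipid-binding protein gene, was at 1.73 ± 0.0899, 6.85 ± 0.201 and 8.39 ± 0.478 CPM. The difference between PRKCZ and PRDM16 was 0.561. With 17207 genes tested, this placed PRDM16 at rank 149 among those nearest to PRKCZ, and PRKCZ at rank 578 among those nearest to PRDM16. The 2 members were thus nearer to each other than to most tested genes, though both were chosen for the same rise. These genes were found by their likeness, so their values are a description with no test.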

How the data were processed

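Total RNA from the 3 Huh-7 lines was sequenced by the authors as stranded paired-end mRNA libraries, aligned to hg38 with STAR and counted per gene with featureCounts. The deposited values are these raw read counts, with no normalization. The strand setting of the counting and the handling of reads that match several places are not given in the sources used here. Positions, exon lengths and GC content came from GENCODE 44 on GRCh38 (60463 of 60664 identifiers matched), and start windows from RefSeq on GRCh38.p14. Copies of a motif were counted on both strands, overlaps included.

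PRKCZ and PRDM16, the gene lists and the tests were chosen with earlier results of these data known. All 9 libraries entered 1 fit in edgeR 4.0.16 (R 4.3.3, TMM, filterByExpr with a minimum count of 10), which left 17207 genes, and its quasi-likelihood test was called at 0.05 after adjusting p-values by Benjamini and Hochberg's method over all of them. The biological coefficient of variation was 5.55%. Total counts per library of 32384469 to 41782387 make 1 CPM worth 31.5 to 42.3 counts, and intervals cover the spread between libraries of a line. Lines with 3 counts or fewer in every library were set to 3 counts, which gives lower bounds.

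Genes named were PRKCZ, PRDM16, every tested neighbour and the overlapping or divergent non-coding genes. From each list all tested genes were named where at most 10 were tested, and otherwise the 4 with the smallest adjusted p in each knockout, plus PRKCI, SQSTM1, PARD3, PARD6B and MECOM. The 5 genes most like each member (log2 CPM with a prior count of 2) completed the set. Alternatives were DESeq2 1.42.0 and its size factors, library size alone, other filters and thresholds, fits of 2 lines, a replicate block, leaving out each library, other definitions of a neighbour and, added after seeing the data, offsets for 20 bins of exon GC content and neighbours with a mean of at least 1 CPM. One gene of a list is not reported here. The test script was checked on simulated data.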

Additional observations from a re-analysis of the deposited data

Results flagged for a closer look

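For 8 of the named genes the 2 knockouts moved in opposite directions from WT, each past the threshold, and the direct test of 1-2 KO against 1-1 KO was also past it (quasi-likelihood test of edgeR, Benjamini-Hochberg adjusted, 3 libraries per line). The direct contrast called 65.3% of all tested genes. Beside PRDM16 lies ARHGEF16, with a log2 difference of 0.90 (adjusted p = 1.76e-08). MECOM, the closest relative of PRDM16, had a difference of -1.17 (adjusted p = 5.15e-11), while PRDM16 itself was higher in 1-2 KO. Among the relatives of PRKCZ, PRKD3 had a difference of 0.34 (adjusted p = 1.82e-06) and PRKCA one of -0.51 (adjusted p = 8.29e-08). The rise of PRKCA in 1-1 KO (0.11, adjusted p = 0.0285) lost its call without WT replicate 1 or 2 and without any 1-1 KO library, with adjusted p-values up to 0.0924. For ARHGEF16 the rise in 1-2 KO lost its call with GC offsets (0.06).

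Of the genes tied to atypical PKC, NBR1 had a difference of -0.70 (adjusted p = 1.13e-09) and PATJ one of 1.74 (adjusted p = 2.21e-10), from -0.96 in 1-1 KO to 0.78 in 1-2 KO. The hepatocyte marker TTR, which carries thyroid hormone in blood, had a difference of -2.23 (adjusted p = 2.56e-13). ACTA2, smooth muscle actin, had the largest difference of the 8, at 6.22 (adjusted p = 3.75e-11). It had 118, 118 and 70 counts in WT, 3, 2 and 5 in 1-1 KO and 232, 268 and 262 in 1-2 KO.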

How the results depend on the processing

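Over 17 alternatives each, the log2 fold change of PRKCZ against WT ran from 3.00 to 3.18 for 1-1 KO and from 2.78 to 2.99 for 1-2 KO. That of PRDM16 ran from 1.66, with GC offsets, to 1.80 for 1-1 KO and from 2.02 to 2.26 for 1-2 KO. The direct comparison of 1-2 KO with 1-1 KO stayed past the threshold for PRDM16 in all 18 alternatives (0.35 to 0.50, adjusted p 1.53e-05 to 0.00429). For PRKCZ it was -0.20 in the reported fit and lost its call in 12 of 18. These were DESeq2's size factors (-0.19, adjusted p = 0.0509), DESeq2's test (-0.19, adjusted p = 0.145), no filter on low counts (-0.20, adjusted p = 0.144), a replicate block (-0.20, adjusted p = 0.0765), a threshold of 0.01 (-0.20), and 7 fits that left out a library (all such fits -0.22 to -0.18). The cause was not tested.

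The count of neighbours called higher in 1-1 KO, 9 as reported, was 4 with at least 10 counts in every library, 4 with protein-coding genes only, 4 with a mean of at least 1 CPM and 19 with 25 genes on either side. In 1-2 KO the same settings gave 4, 5, 5 and 18 in place of 9, and in the direct comparison 25 genes on either side gave 15 in place of 3. These sets hold other numbers of genes by construction. The count called lower in 1-1 KO was 1 in place of 2 with library size alone or a threshold of 0.01, and 17 with 25 genes on either side. In 1-2 KO it was 2 in place of 1 with no filter or with GC offsets, and 14 with 25 genes on either side. In the direct comparison it was 2 with no filter, 1 with a replicate block, 1 with GC offsets and 8 with 25 genes on either side, in place of 0. The median log2 fold change of neighbours in 1-1 KO, 0.63 as reported, was 1.82 with no filter, 0.04 with at least 10 counts in every library, 0.26 with protein-coding genes only, 0.02 with a mean of at least 1 CPM and -0.02 with 25 genes on either side. In 1-2 KO the reported 0.77 became 1.11, 0.26, 0.27, 0.28 and 0.18 in the same order. Leaving out single libraries gave 9 to 10 neighbours higher and 1 to 2 lower in both knockouts, medians of 0.63 to 1.02 in 1-1 KO and 0.52 to 1.37 in 1-2 KO, and 2 to 4 higher and 0 to 3 lower with a median of -0.03 to 0.11 in the direct comparison. Of the named genes called in the reported fit, a sign changed only with GC offsets, for PKN3 (-0.07 in 1-1 KO) and for APOA1 (-0.25 in 1-2 KO). Same-numbered libraries did not visibly deviate together (correlations of -0.187 to 0.047 over 9 pairs). The highest correlation, 0.237, was between WT replicate 3 and 1-2 KO replicate 1. These values cannot tell whether same-numbered libraries were handled together. With the replicate block 10596 genes were called in 1-1 KO in place of 10915, 8986 in 1-2 KO in place of 9355, and 10923 in the direct comparison in place of 11229. Depth limits the genes near the floor of 3 counts, among them PRKCZ-AS1 and PRDM16-DT in WT.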

Other observations

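Among the 50 neighbours, 35 were too scarce to be tested, and 14 of these had 0 counts in all 9 libraries. Genes at or near 0 in all lines lay directly beside the 2 members. PRKCZ-DT, the divergent non-coding gene at the start of PRKCZ, had 1 count in all, in 1-1 KO replicate 2. GABRD, a GABA receptor subunit gene next to PRKCZ, had 1 count in each 1-1 KO library, 0, 1 and 0 counts in 1-2 KO and 0 in WT. CFAP74 and MEGF6 had at most 5 counts in any library. ENSG00000286518 had the highest counts of the 35, with 1, 0 and 2 in WT, 11, 16 and 8 in 1-1 KO and 4, 1 and 2 in 1-2 KO. These genes were chosen after their values were seen.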
